A study of Mus musculus with 8 samples.

Results

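The genes described here are 10 acute-phase and related innate-defence genes, Saa1, Saa2, Saa3, Saa4, Lcn2, Hp, Orm1, Orm2, Cp and Lbp, measured in the ileum of the mouse, where the small intestine ends. They were taken as the non-control probes of the array that carry one of these names. All 10 names were on the array, with 11 probes, out of 35715 names and 55681 probes in all, and 9 of the 10 genes passed the filter on dim signal, out of 21362 genes tested. RNA came from 8 samples of female mice, 4 per group, each on its own 1-colour Agilent array. The doxycycline group was of the strain Rosa26rtTA/+, Hprt Myc-Tnk1tg and received 50 µg doxycycline per g body weight, injected into the abdomen in 100 µl. The saline group carried the same alleles per the strain label and the design text, although its sample titles call it WT, and received 100 µl of 0.9% NaCl. Tissue was taken after 24 hours in both groups. The labels give no age.

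In this strain rtTA, an activator that binds its target promoter in the presence of doxycycline, is placed at Rosa26, a locus active in most cell types, and it switches on a Myc-tagged copy of Tnk1, a non-receptor tyrosine kinase, at the Hprt locus. The labels conflict on whether the saline mice carried both alleles, and no array of doxycycline-treated mice without them was used here, so the drug, the induced kinase and any difference in genotype cannot be told apart. The Hprt probe, at the locus that holds the Tnk1 copy, stood at 4.21 to 4.51 on doxycycline arrays and at -2.23 to -0.88 on saline arrays, a log2 difference of 6.01 (limma adjusted p = 5.55e-05 over all probes). The part of genotype in that difference was not tested. The labels do not say in so many words that each array is a separate mouse, and p-values therefore speak only of the spread among these arrays.

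The acute-phase response is the change in secreted proteins that follows infection or tissue injury. It is driven mainly by the cytokines IL-6, IL-1 and TNF acting on the liver, through the transcription factors STAT3, C/EBP beta and delta and NF-kB, often together with glucocorticoids. Several of these genes are also expressed outside the liver: gut epithelium makes serum amyloid A and lipocalin 2, neutrophils store lipocalin 2, and adipocytes express haptoglobin and orosomucoid. In bulk tissue, more cells of a type and more RNA per cell cannot be told apart.

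A few facts of the whole series bear on these genes. Levels are log2 signal minus the 75th percentile of the same array, so 0 is that percentile, and the level of a probe says nothing against that of another probe. Between 30485 and 31713 probes were well above background on the doxycycline arrays and between 22069 and 23994 on the saline arrays. The dimmest such probes stood at levels of -4.91 to -4.51 on doxycycline arrays and -3.07 to -2.57 on saline arrays, which limits what can be said of dim members. The doxycycline arrays lay in row 1 of the slide and the saline arrays in row 2, and the effect of the row cannot be told apart from that of the treatment. The 2 probes of Tnk1, the induced gene, disagreed. The dimmer stood at 0.34 to 0.82 on doxycycline arrays and at -2.74 to -1.91 on saline arrays, a log2 difference of 2.79 (limma adjusted p = 0.000416 over all probes). The brighter Tnk1 probe stood at 1.89 to 2.42 on doxycycline arrays and at 2.23 to 2.83 on saline arrays, a log2 difference of -0.45 that did not pass (adjusted p = 0.143). Markers of ileal enterocytes were bright throughout, their summed linear signal (relative to the 75th percentile) being 1456 to 2190 with doxycycline and 1718 to 1832 with saline.

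The serum amyloid genes lie side by side on chromosome 7, where the array's mm9 annotation places the probes of Saa3 at 53970389 to 53970448, Saa4 at 53983662 to 53983721, Saa1 at 53996070 to 53996129 and Saa2 at 54009622 to 54009681. Exon and untranslated-region annotation of that build was not used here. The probes of the amyloid pair and the orosomucoid pair whose responses are compared further on are shown first, because related genes can share signal where their probes are alike. Each probe is 60 bases long and is written 5′ to 3′.
Saa1: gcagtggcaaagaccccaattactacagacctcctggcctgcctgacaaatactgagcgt
Saa3: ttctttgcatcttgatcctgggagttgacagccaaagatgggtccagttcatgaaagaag
Orm1: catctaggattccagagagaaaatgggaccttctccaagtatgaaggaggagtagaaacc
Orm2: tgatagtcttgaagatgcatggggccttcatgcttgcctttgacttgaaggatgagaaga
The longest run of bases shared by any pair of the 11 member probes was 9, and the Saa1 and Saa3 probes share at most 6. Probes were compared only with one another, and they lie at different positions of their transcripts. Short shared runs therefore do not show that related genes share no signal. Whether a probe matches the transcript of a related gene was not tested. The Orm2 probe maps to chromosome 4, 63024979 to 63025038 (mm9), and the file gives no position for the Orm1 probe. Each of the 11 probe accessions was matched to RefSeq (GRCm38.p6) with the same symbol.

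The promoters of Saa1, Saa2, Saa3 and Lcn2 are shown, of which Saa3 and Lcn2 passed the test between groups and Saa1 and Saa2 did not. Each window is the 250 bases before the start in RefSeq's promoter table (GRCm38.p6), on the gene's own strand. Of the members, 7 had a window in that table. Those of Cp, which also passed, Saa4 and Orm2 were searched in the same way but are not shown. Matches to the C/EBP motif (TTNNGNAA, either strand) or to the interferon-type element (a tandem GAAA repeat with a free pair of bases between) are in capitals.
Saa1, chr7:46742981-46743230, minus strand: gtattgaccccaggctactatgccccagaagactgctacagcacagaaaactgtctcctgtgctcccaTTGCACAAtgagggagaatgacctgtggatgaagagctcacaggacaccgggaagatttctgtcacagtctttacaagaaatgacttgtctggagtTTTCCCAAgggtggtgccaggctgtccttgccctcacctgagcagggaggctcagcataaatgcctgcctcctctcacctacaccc
Saa2, chr7:46751583-46751832, plus strand: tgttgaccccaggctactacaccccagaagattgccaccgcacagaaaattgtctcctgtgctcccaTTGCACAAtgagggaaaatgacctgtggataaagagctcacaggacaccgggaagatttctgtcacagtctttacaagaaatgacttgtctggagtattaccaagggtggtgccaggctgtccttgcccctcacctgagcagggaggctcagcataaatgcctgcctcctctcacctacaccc
Saa3, chr7:46715677-46715926, minus strand: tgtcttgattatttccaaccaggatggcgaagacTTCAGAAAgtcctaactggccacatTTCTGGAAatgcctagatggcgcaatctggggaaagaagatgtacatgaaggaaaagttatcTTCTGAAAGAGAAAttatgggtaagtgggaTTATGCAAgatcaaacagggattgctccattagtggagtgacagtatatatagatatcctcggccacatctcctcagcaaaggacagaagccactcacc
Lcn2, chr2:32387740-32387989, minus strand: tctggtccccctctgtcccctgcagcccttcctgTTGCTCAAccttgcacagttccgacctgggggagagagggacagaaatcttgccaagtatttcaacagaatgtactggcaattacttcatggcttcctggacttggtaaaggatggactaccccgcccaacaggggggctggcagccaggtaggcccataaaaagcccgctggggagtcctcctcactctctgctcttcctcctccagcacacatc
The windows of Saa1 and Saa2 were 94.8% identical in a global alignment, against 52.2% for Saa1 with Saa3. The Saa3 window held 4 C/EBP matches and 1 interferon-type match, the last overlapping the C/EBP match at bases -129 to -122. The Saa1 window held 2 C/EBP matches and the Saa2 and Lcn2 windows 1 each. Among windows not shown, that of Saa4 held an interferon-type match at bases -162 to -153. It also held C/EBP matches at -245 to -238 and -52 to -45, although Saa4 was not well above background on any array. The Orm2 window, of a gene that did not pass, held 2 C/EBP matches and the 2 Cp windows 1 each. Of 32851 promoter windows of this length, 36.8% held a C/EBP match and 2.98% an interferon-type match. The kappaB consensus, the STAT motif (TTCNNNGAA) and the full glucocorticoid element, present in 7.25%, 7.02% and 0.0548% of all windows, did not occur in these letters in the 4 windows shown. The Saa3 window and part of the Saa1 window lie inside the span that RefSeq gives the gene, whose outermost annotated start is farther upstream.

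Of the 9 tested genes, 4 were higher with doxycycline at an adjusted p under 0.05 (limma, Benjamini-Hochberg over all 21362 genes) and 0 were lower, with 5 higher and 0 lower at an unadjusted p under 0.05. Over all genes tested, 5.94% were higher and 7.9% lower at an adjusted p under 0.05. The share of all genes at an unadjusted p under 0.05 is not given here, so the unadjusted counts have no background. The 4 genes were Saa3, Lcn2, Cp and Lbp, and the same 4 had every doxycycline value above every saline value, which held for 8.77% of all genes. The median log2 difference was 0.72 over the 9 tested genes, against 0.02 over all genes. The count was 2 without doxycycline 2 or 3, or without saline 1, 3 or 4, and 3 without any other single array.

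**Figure D1:**
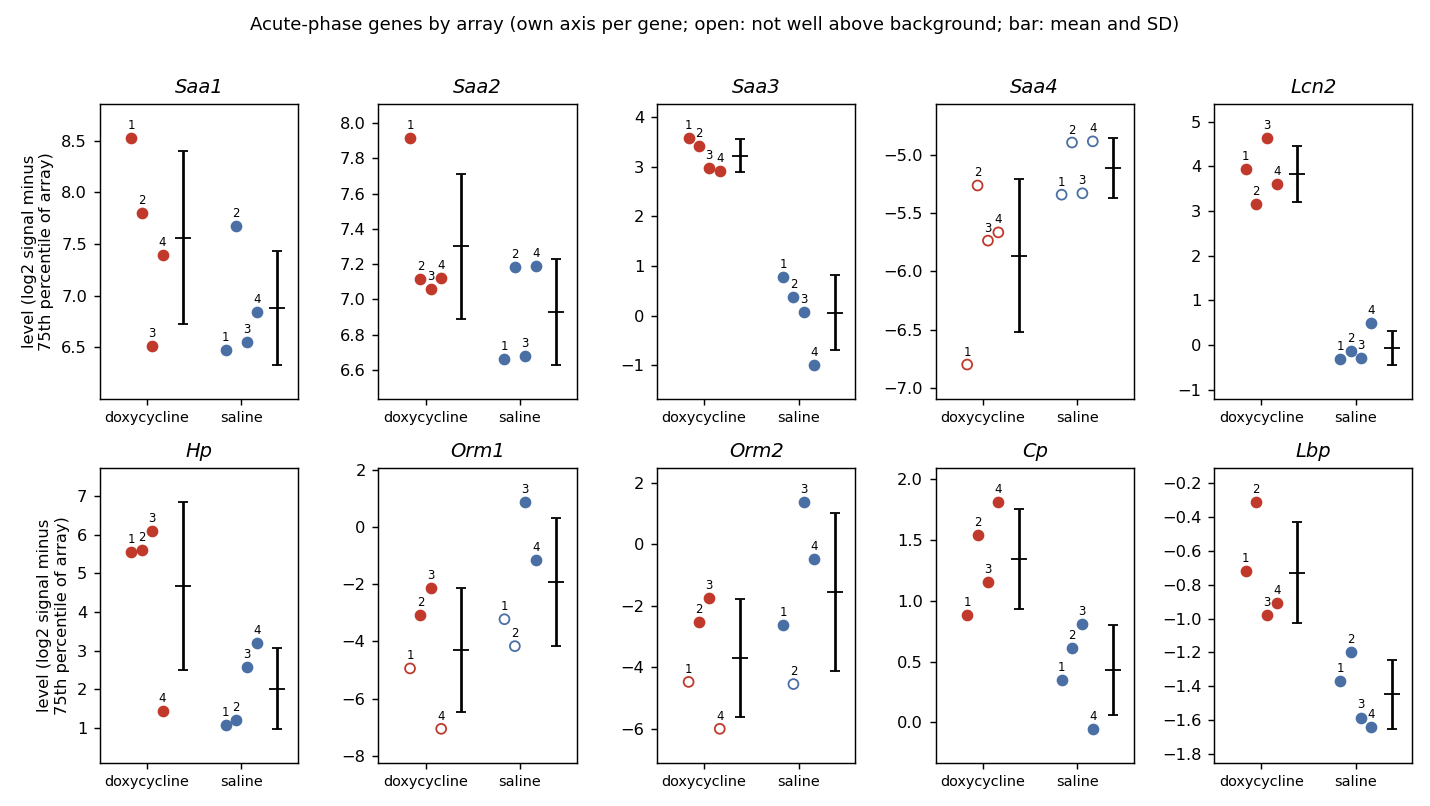
Level of each of the 10 genes on each array (log2 signal minus the 75th percentile of that array), with doxycycline left of saline and replicate numbers above the points. Open points were not well above background, and black bars are the mean and SD of 4 arrays. The groups stand apart for Saa3, Lcn2, Cp and Lbp and overlap for the other genes.

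Saa3 encodes an amyloid A protein made mainly outside the liver, in epithelium, macrophages and fat. Its level was 3.58, 3.42, 2.97 and 2.91 on doxycycline arrays 1 to 4, and 0.78, 0.38, 0.08 and -0.98 on saline arrays 1 to 4. The groups were far apart, and the lowest doxycycline array stood above the highest saline array by more than the whole range of either group. The mean Saa3 level was 3.22 ± 0.33 in the doxycycline group, against 0.06 ± 0.75 in the saline group (SD, n = 4 each), a rise of 8.91-fold (95% interval 5.08 to 15.6, limma adjusted p = 0.00114). The log2 difference was 3.16 with an SE of 0.36, and it lay between 2.81 and 3.40 when any single array was left out, past the threshold each time. Of 9 tested macrophage and monocyte markers, 1 was higher (Mrc1) and 1 lower (Adgre1), beside 5.94% and 7.9% of all genes tested. At an unadjusted p under 0.05 (limma) 4 were higher and 1 lower. Fcgr1, among the 9, passed the filter only through the doxycycline group. The summed signal of the 10 markers on the array was 37.22 to 63.91 with doxycycline and 21.15 to 41.61 with saline. The part of macrophages in the Saa3 result was not tested.

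Lcn2 encodes lipocalin 2, which binds bacterial siderophores and so withholds iron from bacteria. Its probe lies on chromosome 2, 32240199 to 32240258 (mm9, minus strand). Doxycycline arrays 1 to 4 had levels of 3.94, 3.15, 4.63 and 3.61, and saline arrays 1 to 4 had -0.32, -0.13, -0.29 and 0.48. All 4 saline arrays sat close together and all 4 doxycycline arrays far above them. The mean Lcn2 level was 3.83 ± 0.63 in the doxycycline group and -0.07 ± 0.37 in the saline group (SD, n = 4 each). The rise was 14.9-fold (95% interval 8.99 to 24.7, limma adjusted p = 0.0004), and it stayed past the threshold without any single array, with log2 differences of 3.63 to 4.13.

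Markers of neutrophils, a known source of Lcn2, passed the test in part. Of 13 listed, 12 were on the array and 8 were tested, of which 3 were higher and 1 lower. Of the tested genes, S100a8 and Camp were well above background on every doxycycline array and on no saline array. They passed the filter only through the doxycycline group, so the count depends on the filter. Ltf, lactoferrin of the same granules as lipocalin 2, rose 7.11-fold and S100a9 6.02-fold. The group mean of S100a8 rose at least 3.58-fold, since none of the saline arrays had it well above background. Both S100 genes overlapped between the groups. S100a8 was at -2.96 on doxycycline 1 and -2.53 on saline 2, and S100a9 at -0.49 and -0.37. Cd177, a neutrophil surface protein, fell by 1.52 on the log2 scale. The summed signal of the list was 105.2 to 141.9 on doxycycline arrays and 102.2 to 107.4 on saline arrays, but the G-CSF receptor gene Csf3r, which did not pass (adjusted p = 0.282), made up 92.91% to 97.55% of it on each array. Without Csf3r the sum was 5.605 to 9.223 with doxycycline and 2.505 to 3.318 with saline, with no overlap. This sum was added after the values were seen, and such a separation was not particular to neutrophil markers. Without their brightest gene, endothelial markers summed to 6.93 to 10.04 with doxycycline and 4.129 to 6.767 with saline. Exocrine pancreas markers, very dim, went the other way, at 0.071 to 0.199 and 0.220 to 0.288. The other marker lists overlapped. The part of neutrophils in the Lcn2 result was not tested.

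Saa1 and Saa2 encode the main circulating amyloid A proteins, which bind high-density lipoprotein and, in the gut, retinol. Saa1 had levels of 8.53, 7.80, 6.52 and 7.40 on doxycycline arrays and 6.47, 7.67, 6.55 and 6.84 on saline arrays. The groups overlapped, with doxycycline 3 among the lowest of all arrays and saline 2 among the highest. The log2 difference was 0.68 (95% interval -0.29 to 1.64), with a limma adjusted p = 0.315. For Saa2 the levels were 7.92, 7.11, 7.06 and 7.12 with doxycycline and 6.66, 7.18, 6.68 and 7.19 with saline. Doxycycline 1 stood alone at the top and the other doxycycline arrays fell within the saline range. The Saa2 difference was 0.37 (95% interval -0.17 to 0.92), with a limma adjusted p = 0.327. The intervals leave room for a rise of up to 3.13-fold in Saa1 and 1.89-fold in Saa2, so equal expression is not shown. Whether the probe of either gene also binds transcripts of its near-identical neighbour was not tested.

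Saa4, the constitutive family member, was not well above background on any of the 8 arrays and was not tested. Its signal stood at -6.80, -5.26, -5.74 and -5.66 on doxycycline arrays and at -5.34, -4.89, -5.33 and -4.88 on saline arrays, all below the dimmest signal called above background on the same array.

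The unequal response within the amyloid family was compared on each array as the log2 ratio between probes, whose absolute value carries no meaning. The ratio of Saa3 to Saa1 was -4.95 to -3.55 on doxycycline arrays and -7.82 to -5.69 on saline arrays, a difference of 2.48. That of Saa3 to Saa2 was -4.34 to -3.69 with doxycycline and -8.17 to -5.88 with saline, a difference of 2.79. Neither ratio overlapped between the groups. For both, the exact two-sided permutation test gave p = 0.0286, the smallest that 4 against 4 arrays allow, and 0.0571 after Benjamini-Hochberg adjustment over the 4 pairs compared, which misses the threshold. The ratio of Saa1 to Saa2 ran from -0.54 to 0.69 on doxycycline arrays and from -0.35 to 0.49 on saline arrays (difference 0.30, exact permutation p = 0.4, adjusted 0.533).

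**Figure D2:**
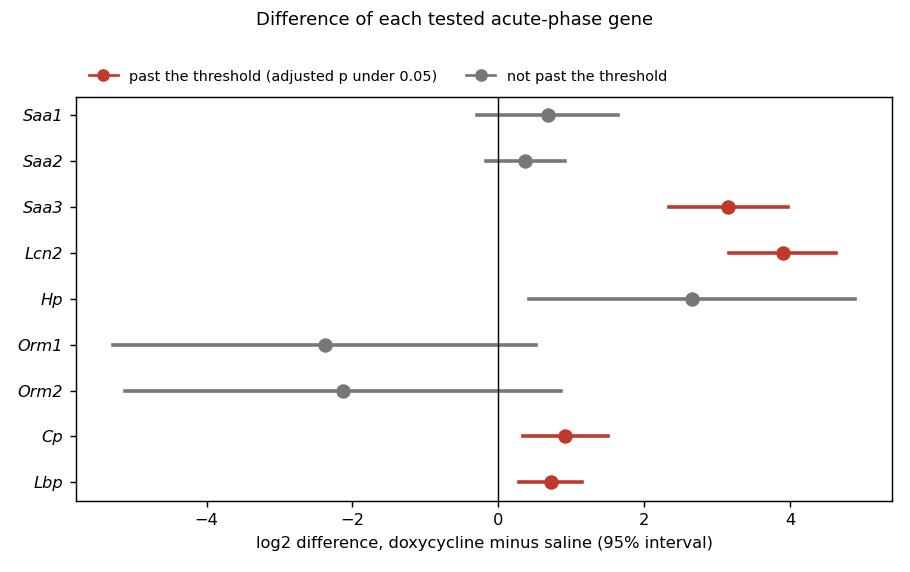
Log2 difference of each of the 9 tested genes, doxycycline minus saline, with its unadjusted 95% interval from limma, red where the adjusted p is under 0.05. Saa3 and Lcn2 lie near 3.16 and 3.90, Cp and Lbp below 1, Hp has a wide interval above 0 that does not pass after adjustment, and the intervals of Orm1 and Orm2 span 0.

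Cp encodes ceruloplasmin, a copper-carrying ferroxidase that loads iron onto transferrin, and was the one member with 2 probes. The brighter, on chromosome 3 at 19889071 to 19889130 (mm9), had levels of 0.88, 1.54, 1.16 and 1.81 with doxycycline and 0.35, 0.62, 0.81 and -0.05 with saline. Every doxycycline value lay above every saline value, but doxycycline 1 only just cleared saline 3. The rise was 1.89-fold (95% interval 1.26 to 2.83, limma adjusted p = 0.0464). The other probe, at 19907511 to 19907570, was well above background on 4 doxycycline arrays and 1 saline array. Its levels were -4.27, -4.38, -3.93 and -3.37 with doxycycline and -5.19, -3.75, -1.52 and -4.72 with saline, with the highest value on saline 3. It differed by -0.19 (limma adjusted p = 0.883 over all probes), so the probes disagreed, and without saline 3 its difference was 0.57. On the brighter probe the adjusted p ranged from 0.0303 to 0.113 over the 8 fits that leave out an array, and was under the threshold only without doxycycline 1.

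Lbp encodes the lipopolysaccharide-binding protein that hands bacterial endotoxin to CD14. Its level was -0.72, -0.31, -0.98 and -0.91 on doxycycline arrays and -1.37, -1.20, -1.58 and -1.64 on saline arrays. The groups did not overlap, though the gap between the lowest doxycycline array and the highest saline array was small. The rise was 1.65-fold (95% interval 1.22 to 2.22, limma adjusted p = 0.0386). As with Cp, the call rested on the full set of arrays: the adjusted p was 0.0384 to 0.109 over the 8 fits without an array, and under the threshold only without saline 2.

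Hp encodes haptoglobin, which captures free haemoglobin. Its probe lies on chromosome 8, 112099045 to 112099104 (mm9). Levels were 5.56, 5.61, 6.08 and 1.45 on doxycycline arrays and 1.09, 1.21, 2.58 and 3.20 on saline arrays. Doxycycline arrays 1 to 3 stood well above all saline arrays, while doxycycline 4 fell among the lower saline values. The log2 difference of 2.66 had an SE of 0.99 and did not pass (limma adjusted p = 0.106). Without doxycycline 4 it was 3.73 with an adjusted p = 0.00681, and without any other single array it did not pass.

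Orm1 and Orm2 encode orosomucoids, plasma lipocalins that bind drugs and dampen inflammation. Orm1 had levels of -4.95, -3.08, -2.15 and -7.06 with doxycycline and -3.23, -4.17, 0.86 and -1.17 with saline. Orm2 had -4.48, -2.54, -1.74 and -6.00 with doxycycline and -2.62, -4.55, 1.38 and -0.46 with saline. In both genes doxycycline 4 was the lowest array and saline 3 the highest, and the groups overlapped widely. Orm1 was well above background on 2 doxycycline and 2 saline arrays, and Orm2 on 2 and 3. The log2 differences were -2.38 (95% interval -5.28 to 0.52, limma adjusted p = 0.24) and -2.13 (95% interval -5.12 to 0.86, adjusted p = 0.307). The log2 ratio of Orm1 to Orm2 was -1.05 to -0.41 on doxycycline arrays and -0.71 to 0.38 on saline arrays, a difference of -0.25 (exact two-sided permutation p = 0.543). With normexp background the difference was 0.28, in the other direction and past the threshold (exact permutation, adjusted p = 0.0381). Since several of these values were not well above background, no direction is given for the ratio. Orm3, a family member that is not among the 10 genes, was well above background on only 1 doxycycline and 1 saline array and was not tested.

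The arrays lowest and highest for Orm1 and Orm2 were also the lowest and highest for the summed level of adipocyte markers. All 10 listed were on the array, 9 were tested and 0 passed the threshold in either direction (limma, with 1, the adrenergic receptor gene Adrb3, lower at an unadjusted p under 0.05). The summed signal of the list was 31.57 to 299.2 on doxycycline arrays and 112.2 to 474.4 on saline arrays, with the extremes on doxycycline 4 and saline 3. The adipokine Adipoq was at -4.89 on doxycycline 4, against 0.98 to 3.23 on the other doxycycline arrays and 2.05 to 4.93 on saline arrays. The fat-cell serine protease Cfd was at -5.11 there, against 5.17 to 6.57 on the other doxycycline arrays and 5.80 to 7.29 with saline. Neither was well above background on doxycycline 4. The part of adipose tissue in the Hp, Orm1 and Orm2 values was not tested. With doxycycline 4 and saline 3 both left out, the log2 difference was 3.26 for Saa3, 3.90 for Lcn2 and 3.92 for Hp, all past the threshold (limma adjusted p = 0.0165, 0.00929 and 0.0174). In the same fit Orm1 differed by -0.53 and Orm2 by -0.38, while Cp (0.89, adjusted p = 0.135) and Lbp (0.73, adjusted p = 0.165) did not pass.

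**Figure D3:**
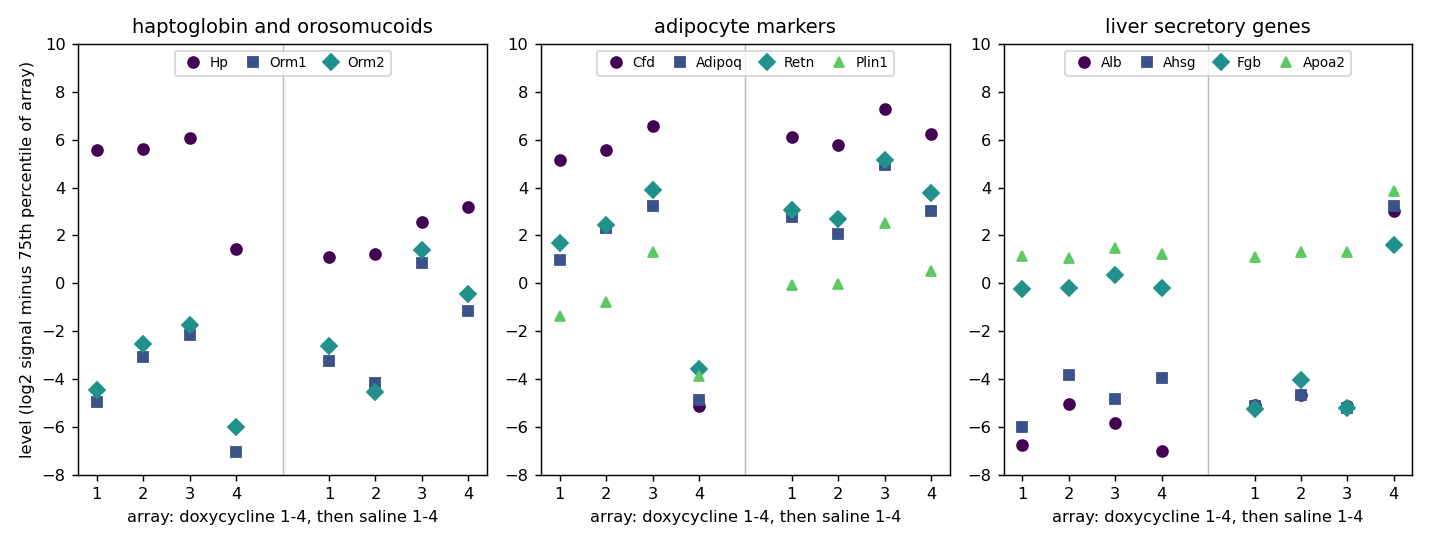
Level of Hp, Orm1 and Orm2 (left), of 4 adipocyte markers (middle) and of 4 genes made by the liver (right) on doxycycline arrays 1 to 4 and then saline arrays 1 to 4, as log2 signal minus the 75th percentile of the array. Doxycycline 4 is lowest in the left and middle panels, apart from Hp, where saline 1 and 2 are lower still, and saline 4 alone is high for Alb and Ahsg.

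Of 10 markers of hepatocytes, the main source of the circulating proteins, 8 were tested, 0 were higher and 1, Serpina1a, was lower. At an unadjusted p under 0.05 (limma) 2 were higher. These were Fga, well above background on 4 doxycycline arrays and 0 saline arrays, and Fgb, on 4 and 1. They passed the filter largely through the doxycycline group. The list stood out on saline 4. Alb, serum albumin, was at 3.003 on saline 4 and not well above background on the other 7 arrays, and the fetuin gene Ahsg was at 3.24 on saline 4 against -6.01 to -3.85 on doxycycline arrays and -5.20 to -4.65 on the other saline arrays. The summed signal of the 10 was 18.74 to 40.01 with doxycycline and 24.83 to 90.52 with saline, the last value on saline 4. Saline 4 also had the highest saline level of Hp, at 3.20, of Lcn2, at 0.48, and of Saa2, at 7.19, whereas its Saa3, Cp and Lbp were the lowest of the group. The part of liver RNA in these values was not tested. With doxycycline 4 and saline 4 both left out, 3 members were higher, Saa3 by 2.91, Lcn2 by 4.15 and Hp by 4.13 on the log2 scale (limma adjusted p = 0.0056, 0.0056 and 0.00636).

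Genes that act around these members were counted by role in the same fit. Where a list is given 0 falls, limma at an unadjusted p under 0.05 found 0 among ligands and glucocorticoid targets and 1 among inhibitors. Among ligands that drive the response, 9 of 14 were tested, 5 were higher and 0 lower, with a median log2 difference of 1.21. Of the tested ligands, Il6, Il11, Lif, Clcf1 and Il22 were well above background on every doxycycline array and on no saline array. They passed the filter only through the doxycycline group, so the count and the median depend on the filter. With no filter on dim probes 3 ligands were lower, and with a common floor only 1 was higher. Il6, the main inducer of acute-phase genes, stood at -2.27 to -0.82 with doxycycline and was well above background on none of the saline arrays, so it rose at least 2.31-fold (limma adjusted p = 0.00062). With normexp background the Il6 log2 difference was 1.12, under that bound, and with a common floor it was 0.95 and did not pass (adjusted p = 0.119). Tnf rose 3.05-fold and Il33, an alarmin of barrier tissue, 2.32-fold, the last call being lost without doxycycline 2 or 4 or saline 1, 3 or 4. Lif and Clcf1, of the IL-6 family, also passed, but neither was well above background on any saline array. Their doxycycline means, -3.00 and -3.08, lay within or below the range of the dimmest saline signal called above background (-3.07 to -2.57). For that reason no fold is given. Clcf1 also overlapped between the groups, at -3.65 on doxycycline 1 and -3.60 on saline 2. The Lif call was lost with normexp background (log2 difference 0.25, adjusted p = 0.266) and with a common floor (0.07, adjusted p = 0.567). The count of ligands was 3 without doxycycline 2 or 4 or saline 1 or 3.

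Of 13 receptors, all tested, 5 were higher and 1 lower (median 0.43). The oncostatin M receptor Osmr rose 3.48-fold, at 1.40 to 2.23 on doxycycline arrays and -0.18 to 0.39 on saline arrays. Il6ra, which binds IL-6, rose 1.95-fold, Lifr, which binds LIF, 1.85-fold and Tnfrsf1a, a receptor of TNF, 1.63-fold. The fall was in Il10rb, a shared chain of the IL-10 and IL-22 receptors, at -0.74, and it was lost without doxycycline 3 or 4 or any single saline array. The falls numbered 2 without doxycycline 1. The count of rises was 3 without doxycycline 3 or saline 1, and Lifr was among those lost. Of 18 transducers and transcription factors 2 passed the threshold: Myd88, the adaptor of Toll-like and IL-1 receptors, rose 2.21-fold, and Nr3c1, the glucocorticoid receptor, fell by 1.03 on the log2 scale. The other 16 did not pass, and the list's median was 0.02. Without saline 4 the rises numbered 3, and without doxycycline 2, saline 2 or saline 4 the falls numbered 2.

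Of 8 tested inhibitors of the response, 4 were higher and 0 lower (median 0.76). Socs1, a feedback inhibitor of JAK kinases, rose 6.18-fold, Il1r2, a decoy receptor for IL-1, 4.88-fold, Socs3, the feedback inhibitor of IL-6 signalling, 3.63-fold and Tnfaip3, which restrains NF-kB, 1.68-fold. Il1r2 was well above background on 3 saline arrays, and its saline levels were -2.74 to -1.67. With normexp background its log2 difference was 1.52, against 2.29 in the main fit, and it still passed (limma adjusted p = 0.00408). Only 2 of the list passed without doxycycline 4 or without saline 3. Socs3 was lost without doxycycline 3 or 4 or saline 1 or 3, and Tnfaip3 without doxycycline 4 or saline 3.

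Of 12 tested partners and receptors of the members, 1 was higher and 2 were lower, with a median of 0.08. Slc40a1, ferroportin, which exports iron with the help of ferroxidases such as ceruloplasmin, fell to 1.56 ± 0.28 with doxycycline, against 3.56 ± 0.55 with saline (SD, n = 4 each), a log2 difference of -2.001 (limma adjusted p = 0.00295). Hmox1, which breaks down haem, rose 2.69-fold. Lrp1, an endocytic receptor, differed by -0.80, a call lost without saline 3. Heph, the intestinal ferroxidase related to ceruloplasmin, did not pass (-0.16), nor did Cd14 (0.71, adjusted p = 0.0504), the lipocalin receptor Slc22a17 (-0.01), Ly96 (-0.40) or Tlr4 (0.40). Cd163, the haptoglobin-haemoglobin receptor, was not well above background on any array. The rises numbered 2 without doxycycline 1 or saline 3.

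The list of other positive acute-phase genes was drawn broadly. It numbered 27, of which 21 were tested, 7 were higher and 1 lower, with a median of 1.10. Fga was well above background on 4 doxycycline arrays and 0 saline arrays, and Serpina3m, Fgb, Itih4, Hamp and Steap4 on 4 and 1. None of these passed the threshold. Fgg and Hpx, on 0 doxycycline arrays and 1 saline array, were not tested. The number tested and the median therefore depend on the filter, and with no filter on dim probes 3 genes were lower. Serpina3n, a protease inhibitor, had levels of 3.26, 3.59, 3.61 and 4.71 with doxycycline and -1.06, -0.31, -0.15 and -1.74 with saline, a rise of 24.4-fold (limma adjusted p = 0.000498). Cd274, the ligand of PD-1, rose 4.65-fold, the metallothionein gene Mt2 2.76-fold and Il4ra 2.45-fold, and the Mt2 call was lost without doxycycline 3 or 4 or saline 1. Cd274 and Il4ra encode membrane proteins rather than secreted acute-phase proteins, and both are counted among the 7. Lrg1, a secreted leucine-rich glycoprotein, had 2.94 to 3.62 with doxycycline and -0.29, 0.82, 0.15 and 3.39 with saline, where saline 4 was the array with hepatocyte markers, and it did not pass (adjusted p = 0.053). The number of rises was 3 without doxycycline 4, 4 without saline 1 and 12 without saline 4. The single fall, Serpina1a, was lost without doxycycline 2, 3 or 4 or saline 1 or 3.

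Negative acute-phase genes, whose products fall in plasma during the response, showed 0 rises and 0 falls among 7 tested (median -0.09; 1 rise without saline 2 and 1 without saline 4). In the same limma fit 1 gene of the list was higher (Apoa4) and 1 lower (Rbp4) at an unadjusted p under 0.05. Among 10 glucocorticoid-responsive genes, 8 were higher and 0 lower, with a median of 1.59. Zbtb16 rose 12.4-fold, Fkbp5, a co-chaperone of the glucocorticoid receptor, 5.60-fold, Dusp1, a MAP kinase phosphatase, 3.82-fold and Tsc22d3 2.71-fold. The count was 5 without doxycycline 3 or 4 or saline 1 or 3.

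**Figure D4:**
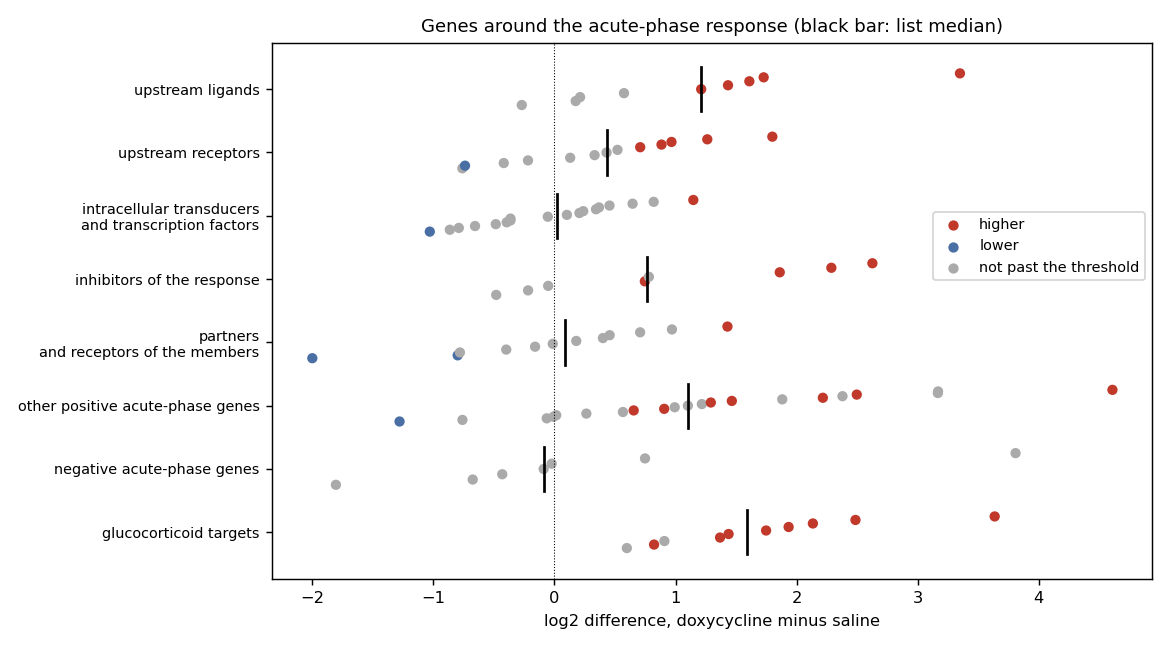
Log2 difference of each tested gene, doxycycline minus saline, in 8 lists by role, red for higher and blue for lower at an adjusted p under 0.05, with the list median as a black bar. Medians run from -0.09 for negative acute-phase genes to 1.59 for glucocorticoid targets.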

How the data were processed

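The values start from the authors' deposited Agilent scanner output (Feature Extraction 10.7.3.1, named in the headers and in the submitters' processing notes), made from 200 ng RNA per the labels, in which each spot has a linear intensity. The authors' software had subtracted background from it and put a surrogate in place of values within noise, per the file headers, so dim levels carry the least information. A deposited table of log2 values differed from the log2 of these intensities only by a constant per array (all but 1 in 100 differences within 0.0000495), which settles its scale, direction and lack of centring. Its column medians were -3.77, -3.92, -3.83 and -3.81 for doxycycline 1 to 4 and -3.97, -3.70, -3.79 and -3.86 for saline 1 to 4, and it served as an alternative only.

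Of 62976 spots per array, 59305 were probe spots. Control spots and outlier-flagged spots were left out, no member spot was saturated, and spots of a probe were averaged. A probe was kept if well above background on at least 4 of 8 arrays (28626 probes), and a gene was represented by its brightest kept probe. The comparison used limma 3.58.1 (R 4.3.3), two-sided; p-values were adjusted by Benjamini-Hochberg across every tested gene, with a threshold of 0.05. The fit was tested on simulated data. Ratios between related genes used an exact permutation test. The fold written "at least" for Il6, and that of S100a8, set the bright group against the dimmest signal called above background. The number of arrays limits precision. Gene names are the array's, and promoters are from RefSeq (GRCm38.p6), aligned with Biopython 1.88.

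The members and gene lists were chosen with earlier results of these data known. Named were the members, up to 4 called genes per list with the smallest p, any tested partner, and marker genes. Hprt, Csf3r, Clcf1, Il10rb, Orm3, Lrg1, Apoa4, Rbp4, Serpina1a, Adrb3, Mrc1, Adgre1, Ltf, S100a8, S100a9 and Cd177 were named after their values were seen. So were Camp, Fcgr1, Fga, Fgb, Fgg, Hpx, Serpina3m, Itih4, Hamp and Steap4. Replicate numbers were checked for pairing by the correlation of same-numbered deviations, which was -0.0439 to 0.113, so the numbers were not taken to pair the samples. Alternatives changed the background, scaling, filter, floor, probe rule, weights, prior or block, or left out arrays. Those leaving out doxycycline 4 with saline 3 or 4 were chosen after seeing the data.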

Additional observations from a re-analysis of the deposited data

Results flagged for a closer look

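Single arrays stood far from the other 3 of their group for 9 of 120 gene and group combinations examined over 60 genes, where chance alone flags about 1 in 20. Among the members, Saa2 was at 7.915 on doxycycline 1, against 7.06 to 7.12 on the other doxycycline arrays, and Hp was at 1.448 on doxycycline 4, against 5.56 to 6.08. The adipocyte gene Cfd was at -5.111 on the same doxycycline 4, against 5.17 to 6.57. On saline 4, Apoa2 was at 3.847, against 1.10 to 1.32 on the other saline arrays, and Ttr at 1.136, against -1.49 to -1.16, both being genes expressed strongly by the liver. Heph was at 4.5 on saline 4, against 4.92 to 5.002. On saline 2, Dusp1 was at 0.4648, against -0.52 to -0.48, and Cps1 at 0.8911, against 1.82 to 1.91. Fgb was at 0.3527 on doxycycline 3, against -0.23 to -0.18.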

How the results depend on the processing

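Over 22 alternatives Saa3 (log2 difference 2.78 to 3.40) and Lcn2 (3.63 to 4.18) kept their direction and stayed past the threshold, and Saa1 and Saa2 stayed higher without passing. Orm1 (-3.13 to -0.53) and Orm2 (-3.12 to -0.38) stayed lower without passing in the 21 that kept them. Where the cause of a change below is not plain from fewer arrays or probes, the cause was not tested. The Cp call was lost with a common floor (0.9165), the mean of its kept probes (0.3628), without saline 2 and 4 together (0.7681), without doxycycline 4 and saline 3 (0.8872) and without doxycycline 4 and saline 4 (0.601). Lbp was lost in the same 3 fits with 2 arrays left out (0.7489, 0.7338 and 0.7155). Leaving out each array in turn gave Cp 0.756 to 1.07, Lbp 0.580 to 0.803, Hp 2.19 to 3.73, and 2 to 3 members called. Hp passed with array weights (2.883), and without doxycycline 4 together with saline 3 (3.918) or saline 4 (4.125). The members called numbered 2 without saline 2 and 4.

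With the replicate block Cp was 0.9165 and lost its call (adjusted p = 0.101), the genes called fell to 787 higher and 905 lower, and no other member changed its call, while Il33, Tnfrsf1a, Il6ra and Tnfaip3 lost theirs. Only 1 of the 4 replicate numbers correlated above 0.1.

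Genes called numbered 1268 higher and 1687 lower in the main setting. They were 2929 and 3400 with array weights, 11810 lower with no filter on dim probes, 1027 lower without saline 2 and 4, 385 and 304 without doxycycline 4 and saline 3, 959 lower without doxycycline 4 and saline 4, and 648 to 1541 higher and 729 to 1870 lower without single arrays.

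The Saa3 to Saa1 and Saa3 to Saa2 ratio differences passed after adjustment with normexp background (2.173 and 2.431), and with probes well above background on all arrays of a group (2.48 and 2.785), where fewer pairs were tested in the second case. The Orm1 to Orm2 ratio difference turned positive with normexp background (0.2834, past the threshold at an adjusted p = 0.0381) and with a common floor (0.1946, adjusted p = 0.429). Without single arrays the Saa3 to Saa1 difference was 2.15 to 2.86 and the Saa3 to Saa2 difference 2.35 to 3.11. The dim Cp probe turned positive with quantile normalization (0.3109), without saline 3 (0.5691) and without doxycycline 4 and saline 3 (0.3637), its range without single arrays being -0.66 to 0.57.

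Over the same alternatives rises numbered 1 to 6 among ligands and receptors, 0 to 4 among transducers, 1 to 5 among inhibitors, 0 to 3 among partners, 3 to 14 among other positive acute-phase genes, 0 to 1 among negative ones and 5 to 9 among glucocorticoid targets. Falls numbered 0 to 3 among ligands, 0 to 2 among receptors, 1 to 5 among transducers, 0 to 1 among inhibitors, 1 to 4 among partners, 0 to 3 and 0 to 1 among other positive and negative acute-phase genes and 0 among glucocorticoid targets. Signal near background limits Orm1, Orm2, Saa4, Il6, Lif, Tnf, Il1r2 and the dim Cp probe.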
